A study of Mus musculus with 4 samples.

Results

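The genes described here are 42 genes of the oligodendrocyte lineage, of 21755 protein-coding genes examined. They are a list of names, and no value in these data enters the rule, although the list was drawn up with earlier results of these data known. It holds 14 genes of oligodendrocyte precursors and newly committed cells, 7 transcription factor genes and 21 genes of myelin and mature oligodendrocytes. The mark measured was H3K27ac, the acetylation of lysine 27 of histone H3, by chromatin immunoprecipitation and sequencing (ChIP-seq). The tissue was cortex of the left cerebral hemisphere, taken from adult female mice of the cross B6CASTF1/J at 2 months of age, whose parents came from the strains C57BL/6J and CAST/EiJ, with no treatment named in the labels. The 4 samples form 1 group: pool I and pool J, each pooled from 4 biosamples, with 2 technical libraries a pool. No second tissue, age or treatment was compared, so no contrast between conditions exists. Counts below are set beside the same count over all protein-coding genes where that was made, without a test.

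Oligodendrocytes wrap the axons of the central nervous system in myelin, a stack of membrane rich in lipid and in a small set of abundant proteins. They arise from precursors that carry the PDGF receptor alpha and the NG2 proteoglycan and that persist, dividing slowly, in the adult cortex. Olig1, Olig2 and Sox10 act along the whole lineage, and Myrf is needed for the switch to myelination. H3K27ac marks active promoters and enhancers, and in a tissue of many cell types a peak sums over all of them, so fewer cells of a type and less acetylation per cell cannot be told apart.

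A promoter peak is a peak of the list the authors called replicated over both pools that overlaps the 1 kb on either side of an annotated transcription start site (TSS) of the gene. Of the 42 genes, 29 had one (69.0%), against 58.5% of all protein-coding genes. By class, 6 of 14 precursor genes (42.9%), 6 of 7 transcription factor genes (85.7%) and 17 of 21 myelin genes (81.0%) carried a promoter peak. All 4 genes of newly committed precursors (Gpr17, Neu4, Bmp4 and Enpp6) lacked one, while all 4 lipid-related enzyme genes of the myelin class (Ugt8a, Fa2h, Aspa and Enpp2) had one. Among the other precursor genes, 5 of 7 proteoglycan and matrix genes and 1 of 2 further genes had one, and the receptor gene Pdgfra did not. In the rest of the myelin class, 8 of 11 membrane genes, 2 of 2 gap junction genes and 3 of 4 other mature genes had one. A gene without a promoter peak here had none in the replicated list, which does not show that the mark was absent. Of the 13 such genes, 3 (Pdgfra, Zfp488 and Mobp) had a promoter peak in the list of pool I, and the depth is unknown.

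The peaks that were present were low. Signal here means the height that the authors' peak calling assigned to a peak, in its own units, and a gene's rank is the percentile of its highest promoter peak among the 12719 protein-coding genes with a promoter peak. The median promoter signal of the 29 marked genes was 4.47, against 8.86 for all marked genes, and their median percentile was 13.4. Values given for pool I and pool J come from each pool's own list, as the highest promoter peak there or, for other peaks, as the peak overlapping the one described. Only 3 of the 29 stood above the 50th percentile, namely Tnr, Cspg5 and Mbp. The median percentile was 26.1 for precursor genes, 11.8 for transcription factor genes and 17.2 for myelin genes. For scale, all 8 genes on a list for excitatory neurons had promoter peaks, with a median percentile of 79.9, and 7 of 8 astrocyte genes had one, with a median of 25.6. Of 8 microglia genes, 5 were marked (median percentile 10.5). All 8 endothelial genes were marked, at a median percentile of 4.65, and 3 of 8 interneuron genes were, at 5.20.

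**Figure D1:**
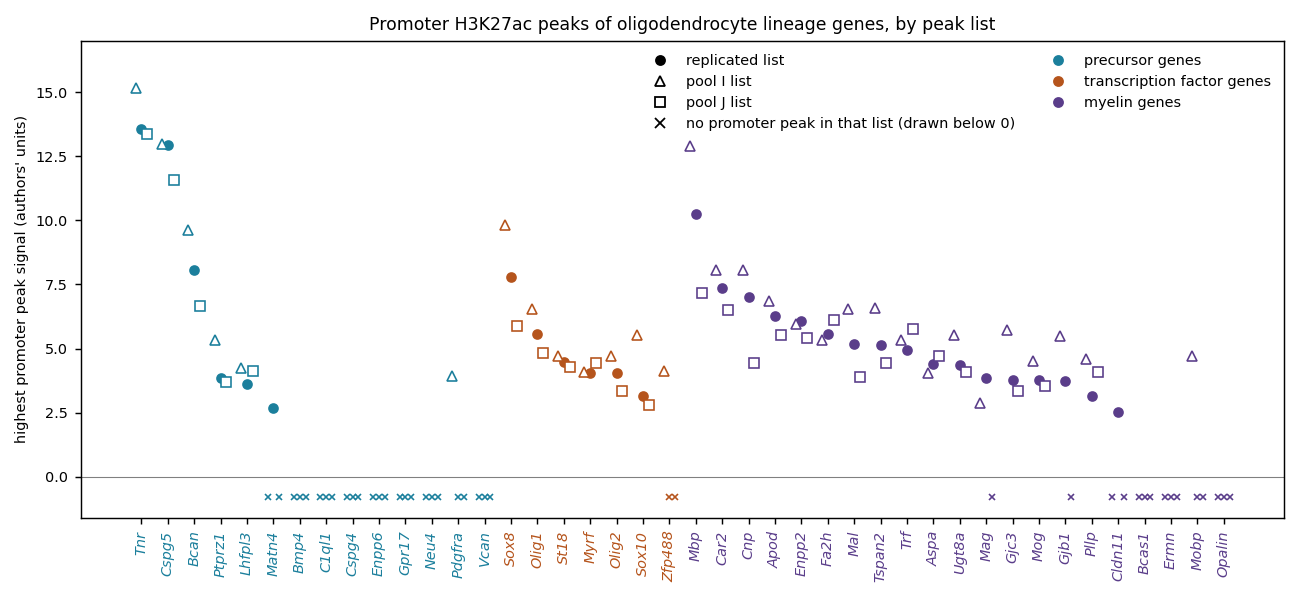
Highest promoter peak signal of each of the 42 genes (y axis, authors' units) in the replicated list (filled circles), the pool I list (triangles) and the pool J list (squares), by class; crosses below 0 stand for no promoter peak in that list. Tnr and Cspg5 are highest, at 13.5 and 12.9, and 8 of the 14 precursor genes have no promoter peak in the replicated list.

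The promoter sequences of 8 genes show how differently these starts are built, and each covers 250 bases before the RefSeq start to 50 after it. The first 3 are a precursor gene with the highest promoter signal of the 42 (Tnr), the unmarked receptor gene of the precursors (Pdgfra) and the transcription factor gene with the highest signal (Sox8). Capitals mark CpG dinucleotides. Sox8 holds 21 in its 300 bases, Pdgfra 5 and Tnr 3.
Tnr, chr1:159523519-159523818 (GRCm38.p6, plus strand): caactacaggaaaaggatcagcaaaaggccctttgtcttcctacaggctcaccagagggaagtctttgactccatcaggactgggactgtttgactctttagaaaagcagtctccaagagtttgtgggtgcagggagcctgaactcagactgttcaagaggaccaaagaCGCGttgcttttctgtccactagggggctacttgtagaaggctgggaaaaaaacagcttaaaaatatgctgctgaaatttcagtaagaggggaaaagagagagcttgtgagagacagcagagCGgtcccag
Pdgfra, chr5:75152001-75152300 (GRCm38.p6, plus strand): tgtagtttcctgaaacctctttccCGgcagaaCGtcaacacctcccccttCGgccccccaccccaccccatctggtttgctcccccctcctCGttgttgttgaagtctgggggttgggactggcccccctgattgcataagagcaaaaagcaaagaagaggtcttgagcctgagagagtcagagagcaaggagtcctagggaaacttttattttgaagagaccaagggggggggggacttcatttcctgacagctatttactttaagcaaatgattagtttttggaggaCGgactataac
Sox8, chr17:25570637-25570936 (GRCm38.p6, minus strand): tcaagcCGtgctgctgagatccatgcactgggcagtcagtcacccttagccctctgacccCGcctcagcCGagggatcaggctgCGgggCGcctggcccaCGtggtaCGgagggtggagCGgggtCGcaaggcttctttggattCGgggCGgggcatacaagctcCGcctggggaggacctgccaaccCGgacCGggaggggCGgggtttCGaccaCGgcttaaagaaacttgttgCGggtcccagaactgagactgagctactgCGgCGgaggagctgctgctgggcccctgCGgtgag

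The other 5 are myelin genes, of which Cnp, Mog and Mag were marked at the promoter and Opalin and Mobp were not. Mog, Mag and Opalin were added after their values were seen, so the 5 do not stand for the 15 myelin promoters searched. Here capitals mark a different feature, the letters ACAAAG, a core of sites bound by SOX proteins, and CTGGCAC or CTGGTAC, forms of the site bound by MYRF, each searched on both strands. Cnp and Mag hold 1 match of each kind, Mog 1 MYRF match, Opalin 2 SOX matches and 1 MYRF match, and Mobp 6 SOX matches.
Cnp, chr11:100574689-100574988 (GRCm38.p6, plus strand): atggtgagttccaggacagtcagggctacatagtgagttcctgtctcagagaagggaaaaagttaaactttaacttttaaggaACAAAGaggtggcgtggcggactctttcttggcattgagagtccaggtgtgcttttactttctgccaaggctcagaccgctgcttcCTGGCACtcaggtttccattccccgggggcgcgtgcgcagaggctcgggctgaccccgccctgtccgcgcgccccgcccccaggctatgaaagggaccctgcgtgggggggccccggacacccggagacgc
Mog, chr17:37023349-37023648 (GRCm38.p6, minus strand): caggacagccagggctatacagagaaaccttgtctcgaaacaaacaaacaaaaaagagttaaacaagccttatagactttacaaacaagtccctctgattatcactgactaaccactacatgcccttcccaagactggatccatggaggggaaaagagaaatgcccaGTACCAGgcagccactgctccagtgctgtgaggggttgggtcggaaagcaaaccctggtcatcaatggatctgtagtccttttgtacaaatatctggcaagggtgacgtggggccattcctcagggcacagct
Mag, chr7:30914814-30915113 (GRCm38.p6, minus strand): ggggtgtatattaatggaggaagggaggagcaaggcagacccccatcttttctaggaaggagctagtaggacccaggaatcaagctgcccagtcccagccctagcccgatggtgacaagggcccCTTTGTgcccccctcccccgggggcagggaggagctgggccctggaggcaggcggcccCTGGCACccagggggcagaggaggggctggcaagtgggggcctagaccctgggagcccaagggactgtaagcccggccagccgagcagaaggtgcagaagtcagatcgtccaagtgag
Opalin, chr19:41077064-41077363 (GRCm38.p6, minus strand): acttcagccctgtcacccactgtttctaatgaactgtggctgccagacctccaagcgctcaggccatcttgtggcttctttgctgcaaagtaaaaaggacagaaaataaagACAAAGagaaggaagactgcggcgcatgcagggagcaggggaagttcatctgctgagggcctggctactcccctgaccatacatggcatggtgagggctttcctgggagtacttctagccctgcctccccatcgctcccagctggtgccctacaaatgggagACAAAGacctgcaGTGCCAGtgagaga
Mobp, chr9:120149492-120149791 (GRCm38.p6, plus strand): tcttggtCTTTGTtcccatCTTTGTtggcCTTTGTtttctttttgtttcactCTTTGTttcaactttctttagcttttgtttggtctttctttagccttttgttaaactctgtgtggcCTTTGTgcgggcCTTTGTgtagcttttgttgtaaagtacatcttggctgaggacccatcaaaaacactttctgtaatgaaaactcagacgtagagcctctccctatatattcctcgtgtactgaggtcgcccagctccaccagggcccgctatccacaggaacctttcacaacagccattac

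Among the 29 of the 42 genes with a sequence in the RefSeq table, taking the start nearest to each gene's 5′ end, the SOX letters stood in 6 of 15 myelin promoters (40.0%), 1 of 11 precursor promoters (9.09%) and 0 of 3 transcription factor promoters. They stood in 16.6% of the promoters of all 16433 protein-coding genes in the table and in 22.1% of the CpG-poor ones. The MYRF letters stood in 4 of 15 myelin promoters (26.7%), against 6.88% of all and 7.84% of the CpG-poor promoters, in 0 of 11 precursor promoters, and in the Zfp488 promoter among the transcription factor genes. Mobp was the only 1 of the 16433 genes with as many as 6 SOX matches. An E-box, CAGCTG, stood in 3 of 15 myelin promoters (20.0%) and 15.3% of all promoters. These matches describe letters in a window of 300 bases and are not measured binding sites.

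The proteoglycan and matrix genes of the precursors had the highest and some of the lowest promoter values of the 42. Tnr, which encodes the matrix glycoprotein tenascin-R, had a promoter signal of 13.5 (81.0th percentile), 15.1 in the list of pool I and 13.4 in that of pool J. Cspg5, the gene of neuroglycan C, followed at 12.9 (78.2nd percentile), with 13.0 in pool I and 11.6 in pool J. Bcan, the gene of brevican, stood at 8.06, with 9.62 in pool I and 6.68 in pool J. Each of these genes was in both pools' lists and stood clear of every other precursor gene. These matrix genes are also transcribed by other cells of the cortex, including neurons or astrocytes, and the lists do not separate cell types.

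Lower in the same class, Ptprz1, a receptor phosphatase carrying chondroitin sulfate, had a signal of 3.87 (5.32 in pool I and 3.71 in pool J). Lhfpl3, a tetraspan membrane protein gene expressed in precursors, had 3.63 (4.25 and 4.15). Its promoter peak also lay within 1 kb of the TSS of the non-coding gene A930003O13Rik. Matn4, a matrilin gene, had the lowest promoter signal of the class, 2.67 (1.37th percentile), and no promoter peak in the list of either pool.

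The genes most often used to identify precursors were unmarked at the promoter in the replicated list. Pdgfra, the receptor gene, had a promoter peak of 3.93 in pool I and none in pool J. It also had one of 2.84 in the pseudoreplicated list of both pools. No peak of the replicated list was assigned to it. Cspg4, which encodes NG2, had no promoter peak in any of the 3 lists but 5 peaks in its introns. The highest of these lay 4.92 kb into the gene with a signal of 5.36 (6.09 in pool I and 4.82 in pool J). Gpr17, a receptor gene of newly committed cells, had 1 peak in its gene body, 3.49 kb from the TSS, with a signal of 4.27 (5.53 in pool I, none in pool J). It also had 1 at 1 to 2.5 kb, at 2.36. Enpp6, a choline phosphodiesterase gene of newly forming oligodendrocytes, had 4 distal peaks and none in the gene. The highest, at 5.25 (6.55 in pool I, 2.86 in pool J), lay 52.1 kb upstream. Neu4, a sialidase gene, had 1 distal peak of 11.2, described below.

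Of the 42 genes, 5 had no peak of any kind assigned in the replicated list (11.9%), against 32.1% of all protein-coding genes. They were Pdgfra, Vcan (the versican gene), C1ql1, Bmp4 and Bcas1, so 4 of the 5 were precursor genes. Bcas1 is expressed in oligodendrocytes that are starting to myelinate and was the 1 gene of the myelin class without any peak there.

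Among the transcription factors, Sox8, a relative of Sox10, had the highest promoter signal, 7.80 (9.82 in pool I and 5.87 in pool J), in a peak 2629 bp wide. That peak reached within 1 kb of the start of the antisense gene 2810468N07Rik. Olig1 stood at 5.56 (6.55 and 4.82) and Olig2 at 4.07 (4.71 and 3.34). The Olig1 peak was 1955 bp wide and the highest Olig2 peak 310 bp. St18, a zinc finger gene, had 4 promoter peaks at its several TSSs, the highest at 4.47 (4.71 and 4.27). Myrf stood at 4.07 (4.09 and 4.45).

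Sox10, the factor that with Myrf acts on myelin genes, had the lowest promoter signal of the marked factors in the replicated list, 3.17 (3.84th percentile). It stood at 5.53 in pool I, above Olig2 (4.71), St18 (4.71) and Myrf (4.09), and at 2.78, again the lowest, in pool J. Zfp488, a zinc finger gene of the lineage, had no promoter peak in the replicated list but 2 peaks at 1 to 2.5 kb, the higher at 4.17 (5.93 in pool I and 2.60 in pool J). In the pool I list it had a promoter peak of 4.12, the same value as the pool I peak overlapping the lower of those 2. All 7 factors thus had a promoter peak in pool I, and 6 of them in pool J.

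The genes of the compact myelin membrane and its neighbours came next. Mbp, which encodes myelin basic protein, had the highest promoter signal of the myelin class, 10.3 (61.0th percentile). It has 10 annotated TSSs in 2 groups, and the peak of 10.3 (12.9 in pool I and 7.18 in pool J) lay at the upstream group, from which the longer Golli transcripts start. The downstream group, from which the classic myelin basic protein transcripts start, had a highest signal of 5.56, with 6.55 in pool I and 4.64 in pool J. Golli transcripts are also made in cells other than oligodendrocytes. The highest promoter peak of Mbp was thus not the one at its myelin start.

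Cnp, the gene of an enzyme of non-compact myelin, had a promoter signal of 7.01 (8.08 in pool I and 4.45 in pool J) in a peak 3691 bp wide. Mal, a proteolipid gene, stood at 5.16 (6.55 and 3.90) and Tspan2, a tetraspanin gene, at 5.15 (6.60 and 4.45). The Tspan2 peak also lay within 1 kb of its antisense gene Tspan2os. Mog, the gene of a glycoprotein on the outer face of myelin, had a promoter signal of 3.77 (8.13th percentile), with 4.50 in pool I and 3.53 in pool J. Pllp, the plasmolipin gene, had 3.17 (4.61 and 4.09).

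Mag and Cldn11 were less secure. Mag, an adhesion molecule of the inner myelin layer, had a signal of 3.86 in the replicated list, a promoter peak of 2.87 in the pool I list and none in the pool J list. Cldn11, the claudin of myelin tight junctions, stood at 2.52 (0.841st percentile), below every other promoter peak of the 42 genes, with none in either pool's list. The remaining 3 membrane genes were unmarked: Mobp and Opalin had a peak at 1 to 2.5 kb (3.17 and 2.36), and Ermn had a single peak of 2.78 in its body that was in neither pool's list. Mobp, an abundant structural protein of central myelin, had a promoter peak of 4.71 in the pool I list alone. The pool I peak overlapping its peak at 1 to 2.5 kb had the same value, so the 2 are not separate support.

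The 4 lipid enzymes lay close together and were all in both pools' lists. Enpp2, the gene of autotaxin, had 6.09 (5.94 in pool I and 5.42 in pool J). Fa2h, which hydroxylates the fatty acids of myelin lipids, had 5.56 (5.32 and 6.12). Aspa, which splits N-acetylaspartate and so supplies acetate for lipid synthesis, had 4.40 (4.07 and 4.72). Ugt8a, which makes galactosylceramide, had 4.37 (5.53 and 4.08). Fa2h and Aspa, unlike Enpp2 and Ugt8a, had higher values in pool J than in pool I, but signals of separate lists are not on a shared scale.

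Of the gap junction genes, Gjc3 stood at 3.77 (5.73 and 3.34) and Gjb1 at 3.72, with 5.50 in pool I and no promoter peak in pool J. Car2, the carbonic anhydrase of oligodendrocytes, had 7.36 (8.05 and 6.49) in the widest promoter peak of the 42 genes, 4264 bp. Apod, the gene of apolipoprotein D, had 6.26 (6.87 and 5.51), and a second promoter peak of 5.23 that was 3837 bp wide. Trf, the transferrin gene, had 4.96 (5.32 and 5.75). The Trf peak was also within 1 kb of the TSS of the protein-coding gene Gm20425, so its signal need not be that of Trf.

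Of the 42 genes, 10 had separate groups of TSSs: 6 were marked at some groups only, 2 at every group, and Pdgfra and Mobp at none. TSS groups were not counted over all protein-coding genes, so whether this split is usual is unknown. Aspa and Gjb1 were marked only at the downstream group, at 4.40 and 3.72. Tnr, Lhfpl3 and Ugt8a were marked only at the upstream group. St18 was marked at groups 1 and 2 of 3. Mbp and Cspg5 were marked at both groups. At Cspg5 the same peak, of 12.9, was the highest at both and the only one at the upstream group. Its summit lay 298 bp upstream of a TSS of the downstream group. Across the 42 genes, the summit lay downstream of the nearest TSS for 36 of 48 promoter peaks (75.0%), against 60.0% of pairs of promoter peak and gene over all protein-coding genes.

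Counted by peak, agreement between the pools was lower than for promoters in general. Promoter peaks were found in the pool I list for 30 of the 42 genes (58.2% of all protein-coding genes), in the pool J list for 25 (55.2%) and in both for 25 (54.7%). Of the 29 genes marked in the replicated list, 25 were thus in both pools' lists, Mag and Gjb1 in that of pool I alone, and Matn4 and Cldn11 in neither. Of all 48 promoter peaks of the 42 genes, 34 overlapped a peak in both pools (70.8%), against 84.3% of promoter peaks of all protein-coding genes. The median signal of these peaks was 4.22, against 6.95 for all promoter peaks, and the part of signal in this difference was not tested. Of the 48, 11 overlapped a peak of pool I alone (22.9%, against 9.84% for all protein-coding genes) and 0 a peak of pool J alone (against 1.93%). The pool I list is the longer, with 69834 peaks against 49839, which moves with this count, and its part in it was not tested. With a −log10 q of at least 5 required, 26 of the 42 genes kept a promoter peak (5 precursor, 5 transcription factor and 16 myelin genes), against 54.8% of all protein-coding genes.

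CpG content of the promoter divides genes in this tissue strongly, and the 42 genes lie on both sides. A gene was called CpG-rich where the 500 bp on either side of its most CpG-rich TSS had an observed to expected CpG ratio of at least 0.6 and at least 50% G and C. Of the 17 CpG-rich members, 15 had a promoter peak, against 90.7% of CpG-rich genes, and the exceptions were Pdgfra and C1ql1. Pdgfra counted as CpG-rich by another TSS than the one printed above. Of the 25 CpG-poor members, 14 had one (56.0%), against 26.8% of CpG-poor genes. Among CpG-poor genes other than olfactory and vomeronasal receptors the share was 30.8%. The CpG-poor members split by class: 10 of 14 myelin genes were marked, 2 of 3 transcription factor genes, and 2 of 8 precursor genes. Fewer had a promoter peak in both pools' lists: 10 of the 25 CpG-poor members, against 2474 of all 10962 CpG-poor genes. By class these were 7 myelin, 2 transcription factor and 1 precursor gene. All 15 marked CpG-rich members were in both pools' lists. The unmarked CpG-poor precursor genes were Cspg4, Vcan, Gpr17, Neu4, Bmp4 and Enpp6.

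The signal of marked members was compared within the same CpG classes. CpG-rich members with a peak had a median signal of 5.16, against 9.53 for all marked CpG-rich genes, and CpG-poor members 4.13 against 6.45. Both medians were thus below those of their class. Tnr was CpG-poor (ratio 0.326) yet had the highest signal of the 42, and Ugt8a, with a ratio of 0.921, had only 4.37. Mog had the lowest ratio of all marked members, 0.168.

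**Figure D2:**
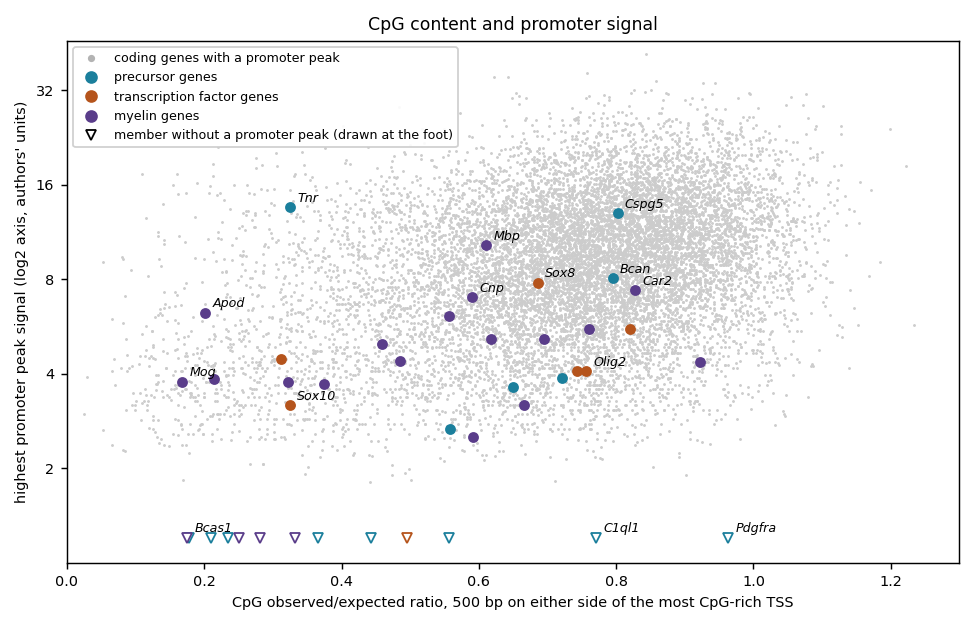
Observed to expected CpG ratio around the most CpG-rich TSS (x axis) against highest promoter signal (y axis, log2 axis, authors' units) for the 42 genes, coloured by class, over all protein-coding genes with a promoter peak (grey); open triangles at the foot are members without a promoter peak. Most coloured points lie low in the grey cloud, and 11 of the 13 triangles are CpG-poor genes.

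Away from their promoters the 42 genes had many peaks. Peaks at 1 to 2.5 kb numbered 22, peaks elsewhere in a gene body 95, and distal peaks, which lie outside the gene and away from every promoter with the member as the nearest protein-coding TSS within 100 kb, 70. Intragenic peaks were found in 21 of the 42 genes (50%), in 6 precursor, 3 transcription factor and 12 myelin genes, against 27.4% of all protein-coding genes. Of the 13 genes without a promoter peak, 4 (Gpr17, Zfp488, Mobp and Opalin) had a peak at 1 to 2.5 kb, against 3.30% of all protein-coding genes without one. The peaks of Gpr17 and Opalin, each at 2.36, were in neither pool's list, and that of Mobp was in pool I alone. Only at Zfp488 was such a peak in both pools' lists. The median number of peaks outside promoters for which the gene had the nearest protein-coding TSS was 2 per member, 1 for precursor, 3 for transcription factor and 3 for myelin genes, and 0 for all protein-coding genes. In the pool J list alone these medians were 1, 0, 1 and 1, and with a −log10 q of at least 5 they were 1, 0.5, 1 and 1. A nearby peak names a neighbour and not a target.

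**Figure D3:**
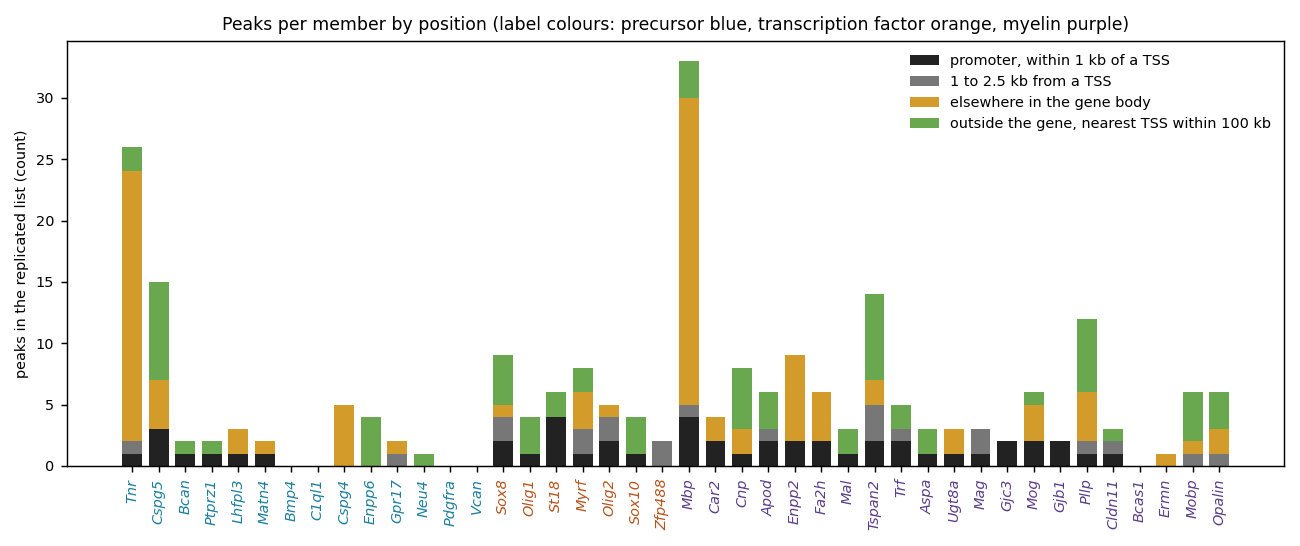
Number of peaks in the replicated list (y axis) assigned to each of the 42 genes (x axis), stacked by position: promoter, 1 to 2.5 kb, elsewhere in the gene body, and distal. Mbp with 33 and Tnr with 26 stand above all others, and 5 genes have none.

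Mbp and Tnr held 47 of the 95 intragenic peaks between them. Mbp had 25 in a gene of 110 kb. With 29 peaks away from promoters, Mbp was among 96 protein-coding genes with as many, and its peaks covered 31.5 kb in all. The highest of them had a signal of 9.76 (11.7 in pool I and 8.16 in pool J), was 3594 bp wide, and lay 18.6 kb before the downstream TSS group. Tnr had 22 in a gene of 408 kb, the highest at 5.76 (6.55 and 4.82), 82.6 kb from the nearest TSS. Enpp2 followed with 7, then Cspg4 with 5.

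The highest peak lay outside the promoter for 11 of the 29 marked genes (37.9%), against 11.1% of all protein-coding genes with a promoter peak. They were Lhfpl3, Matn4 and Ptprz1 among precursor genes, Sox10, Sox8 and Myrf among the factors, and Mog, Mag, Cldn11, Ugt8a and Pllp among myelin genes. For Lhfpl3, Cldn11 and Ugt8a the higher peak overlapped a peak of pool I alone. The margin was small for Lhfpl3 (3.77 against 3.63), Ugt8a (4.47 against 4.37) and Mag (4.07 against 3.86). The Mag peak also lay within 1 kb of the TSS of another gene, Gm44662. The count over all genes includes such cases too.

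Mog showed the widest gap. A peak 1889 bp wide, 5.50 kb upstream of its start, had a signal of 14.5, above 97.4% of all peaks in the list, with 15.9 in pool I and 10.2 in pool J. Its own promoter stood at 3.77. The next protein-coding TSS, of Gabbr1, a GABA receptor subunit gene expressed in neurons, was 17.1 kb from the summit. A peak in a Mog intron, 4.24 kb after the start, stood at 8.77 (10.4 and 7.79). The 201 bases around the summit of the upstream peak are shown because it is the highest peak outside promoters of any member. Capitals mark its 7 CpG dinucleotides, and it held neither the SOX nor the MYRF letters.
Mog upstream peak, chr17:37028799-37028999 (mm10, plus strand): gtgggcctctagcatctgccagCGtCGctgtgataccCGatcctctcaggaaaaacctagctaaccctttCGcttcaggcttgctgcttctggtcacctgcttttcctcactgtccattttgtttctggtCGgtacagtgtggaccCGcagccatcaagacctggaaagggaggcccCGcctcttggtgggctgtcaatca

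Neu4 had no promoter peak, but a peak of 11.2 (11.9 in pool I and 9.78 in pool J) lay 14.8 kb downstream of its start. Pdcd1 had the next protein-coding TSS, 17.3 kb from that summit, so the peak lay between these genes at similar distances. Downstream of Sox8, 13.5 kb from its start, a peak 3373 bp wide had a signal of 11.0 (18.4 in pool I and 8.30 in pool J). It lay inside another gene, AC131323.3, and the next protein-coding TSS, of Lmf1, was at 21.9 kb. Sox8 also had a peak of 6.45 (7.44 and 5.50) that reached past the 3′ end of its own gene.

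At Sox10, a pair of peaks lay 28.95 and 27.7 kb upstream with signals of 5.04 (6.28 in pool I and 4.98 in pool J) and 4.66 (4.91 and 4.45). Both were above the promoter peak of 3.17 in the replicated list. In pool I the highest promoter peak, 5.53, was above the second of them. In pool J the promoter peak, 2.78, was below both. At Myrf a peak 26.3 kb upstream stood at 4.81 (6.30 and 3.84), above the promoter at 4.07. In pool J the Myrf promoter peak, 4.45, was the higher. At Pllp, 6 distal peaks stood upstream, the highest at 7.93 (5.77 and 7.18), against 3.17 at its promoter. Another 4 peaks lay in the gene, the highest at 6.62 (8.17 and 5.33), which also lay inside the gene Gm45767. Cspg5 had 8 distal peaks, and the highest, 8.56 (10.2 and 6.74), lay 37.6 kb upstream inside the gene Smarcc1, a chromatin remodeller subunit. Tspan2 had 7, all upstream, with a highest signal of 4.57 (6.55 and 3.53).

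**Figure D4:**
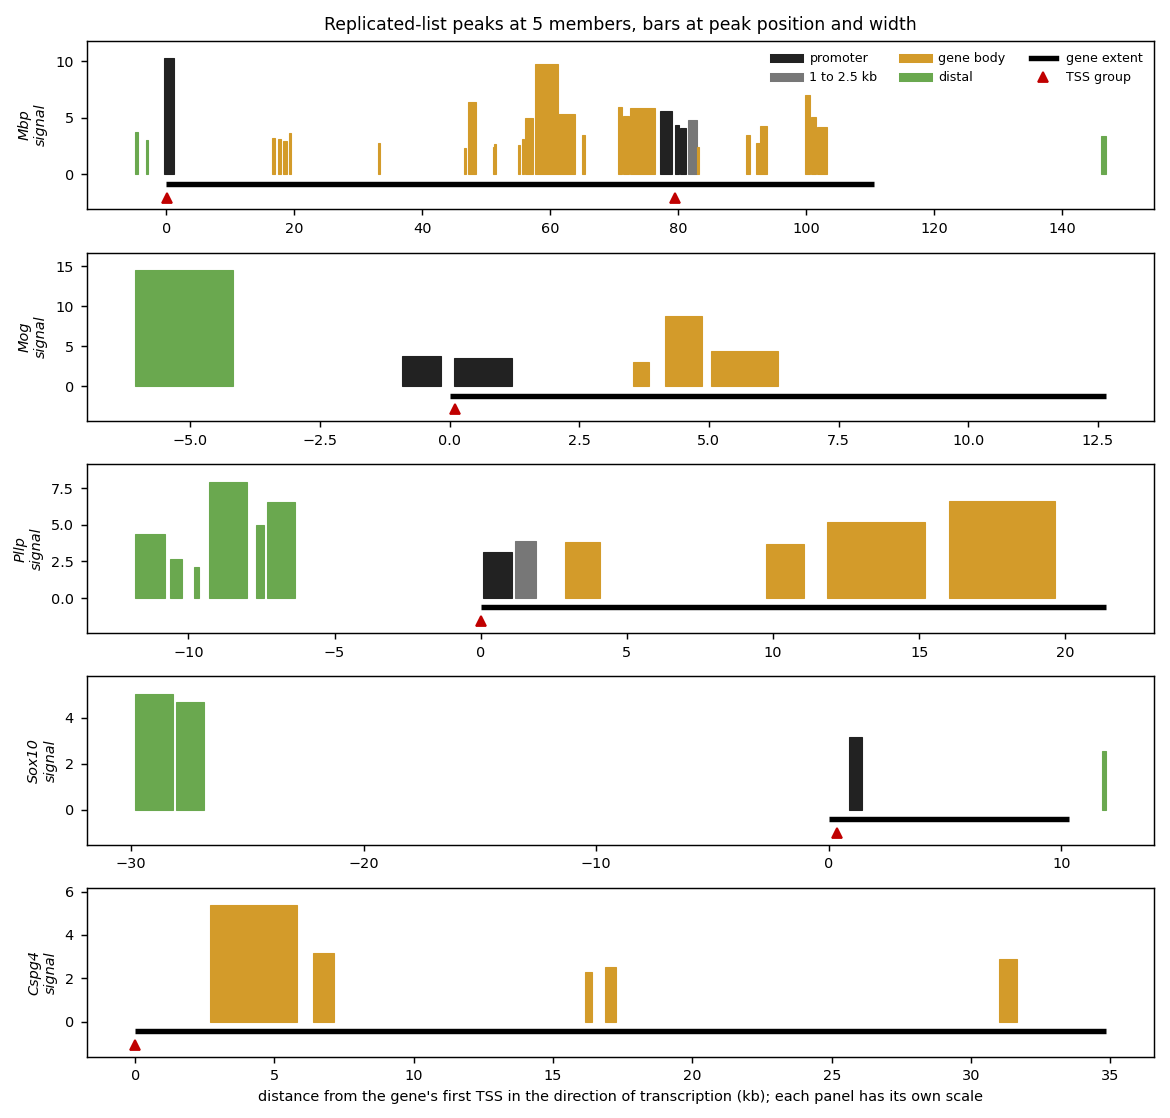
Replicated-list peaks at Mbp, Mog, Pllp, Sox10 and Cspg4, drawn by distance from the first TSS in the direction of transcription (x axis, kb) with the signal as height (y axis, authors' units) and bars as wide as the peaks; the black line is the gene and red triangles its TSS groups. At Mog the upstream peak (14.5) is higher than the promoter peaks, and at Cspg4 all 5 peaks lie in the gene body.

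Support by both pools was lower for peaks outside promoters, in the members as in all genes. Of the 95 intragenic peaks, 35 overlapped a peak in both pools (36.8%, against 45.1% for all protein-coding genes). Of the 70 distal peaks 33 did (47.1%, against 49.2%), and of the 22 at 1 to 2.5 kb 7 did (31.8%, against 51.4%). Peaks in neither pool's list numbered 24 among the intragenic (25.3%, against 18.2%) and 15 among the distal ones (21.4%, against 16.3%). Each peak outside promoters given above with a value for pool I and for pool J was in both pools' lists.

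The summits of the 184 peaks away from promoters that were assigned to a member, by gene body or by distance, showed about the same share of motif letters as all 52300 peaks away from promoters. The SOX letters stood within 100 bp of 17.4% of them, against 16.5% of all. The MYRF letters stood at 6.52%, against 6.38%, the E-box at 16.3%, against 13.6%, and the MEF2 letters at 4.35%, against 3.24%.

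Other genes of the lineage, on a list of 26 that holds further factors, receptors and mature markers, were marked more often than the 42 genes: 25 had a promoter peak (96.2%), with a median percentile of 23.9. The exception was Nkx6-2, a homeobox factor gene. The highest were Lingo1, an inhibitor of myelination also made by neurons, at 16.2 (20.3 in pool I and 14.8 in pool J), Pdgfa, the ligand of the precursor receptor, at 15.3 (20.3 and 10.4), and Nfasc, the neurofascin gene, at 13.9 (15.3 and 12.1). The ligand gene Pdgfa was at the 87.9th percentile, and its receptor gene Pdgfra had no promoter peak in the replicated list. The lists do not separate cell types, so promoter peaks of these 26 genes need not come from cells of the lineage. Of the 26 genes, 18 were CpG-rich (69.2%), against 17 of the 42 (40.5%). Among CpG-rich genes 17 of 18 were marked, against 15 of 17 members, at median percentiles of 16.5 and 18.8. Among CpG-poor genes 8 of 8 were marked, against 14 of 25 members, at medians of 24.1 and 10.8. The part of CpG content in the difference between the lists was not tested.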

How the data were processed

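H3K27ac ChIP-seq peaks were analysed as the authors deposited them, in 4 lists on mm10, with the columns of narrowPeak files: position, a display score, signal, −log10 of the p-value and of the q-value, and summit. The replicated and 1 pseudoreplicated list cover both pools, and 1 pseudoreplicated list covers each pool. The deposited signal and −log10 q-value are per peak. The deposited score and p-value were not used. No source used here names the aligner, the peak caller or the signal normalization, the depth is unknown, and CAST/EiJ variants could lower mapping.

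Peaks were matched to 34568 GENCODE vM21 basic genes on the autosomes and X by overlap of at least 1 bp, with Python 3.11.15 and numpy 2.4.6. The assignment was tested on simulated data. CpG and summit sequence came from GRCm38.p6, and promoter sequences from RefSeq. All 36 promoter sequences of members equalled that genome. Of the 42 genes, 29 were in that table. Biosamples are not described as separate animals, so the pools' spread may be technical.

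The members and gene lists were chosen with earlier results of these data known. Any member could be named, and of the 26 other genes the 3 highest and those unmarked. Sequences of Tnr, Sox8, Cnp, Pdgfra and Mobp followed a rule, and those of Mog, Mag and Opalin were added after their values were seen, as were the motif counts. Alternatives were the other lists, a q minimum, other windows and other distances.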

Additional observations from a re-analysis of the deposited data

How the results depend on the processing

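Of 74 alternatives over 10 results, 52 stayed near the value reported and 22 moved. The counts of members with a promoter peak, in all and by class, stayed within 1.5 times in each of theirs, with 25 to 33 of 42 genes marked. Over the same settings 54.8% to 59.8% of all protein-coding genes were marked. The median percentile of member promoter peaks moved little in size: 13.6 in the pseudoreplicated list, 13.8 to 13.9 with 1 pool left out, 12.5 with a −log10 q of at least 5 and with 50% of the peak required in the window, 13.2 and 13.0 with 500 and 2500 bp windows, 17.4 at the 5′ end alone and 13.8 by summit. The median number of peaks outside promoters rests more on the list: per member it was 1 to 2.5 with a pool left out, 0 to 1 per precursor gene, 1 to 4 per transcription factor gene and 1 to 3 per myelin gene, each lowest in the pool J list alone. With the q minimum it was 1 per member, 0.5 per precursor gene, 1 per transcription factor gene and 1 per myelin gene. Within 50 kb it was 0.5 per precursor gene. Counting each peak within 100 kb whichever gene is nearest, it was 6.5, 4, 6 and 8, and 3 for all protein-coding genes. The cause was not tested. With the CpG class taken at the 5′ end alone, an alternative added after seeing the data, 17 of 29 CpG-poor members were marked. By the same rule 3558 of all 11670 CpG-poor genes were (30.5%). No paired analysis was possible because the samples form 1 group. The depth is unknown, so a member without a peak may lie under the calling threshold.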
